A study of Mus musculus with 18 samples.

Results

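Angptl2, Arl4c, Coro2a, Gcnt1, Pgm2l1 and 2900009J06Rik are 6 of the 18204 genes measured by RNA sequencing in J774.1 cells, a mouse macrophage line. They were chosen by their change with 4-Cl-HIPP in wildtype cells, so their values in wildtype cells under 4-Cl-HIPP and vehicle selected them and are given as a description with no test. All 6 were found in the table, and all 6 passed the filter on low values, which left 16383 genes for testing. 2900009J06Rik, listed at 0 in 11 of 18 samples, passed it only through the groups in which it is above 0, so its differences are described and support nothing.

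MTOB is a keto acid that binds the substrate pocket of the C-terminal binding proteins (CTBPs), and 4-Cl-HIPP is an oxime acid with a chlorophenyl ring that was developed from it. CTBPs are transcriptional co-repressors that are brought to DNA by sequence-specific factors and that carry a dehydrogenase domain which binds NAD. The cells were wildtype J774.1 or a Ctbp1/2 double knockout (dKO) made in them by CRISPR, and each genotype was treated for 4 h with vehicle (PBS/DMSO), 1.5 mM MTOB or 0.25 mM 4-Cl-HIPP. These 6 groups held 3 biological replicates each. The edited cells were grown out from single cells, and a difference between the genotypes cannot be told apart from a difference between the lines that were expanded. The 2 inhibitors were used at different concentrations against 1 vehicle group per genotype, and their values are therefore set side by side without a comparison.

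Levels are read as TPM, a transcript abundance per gene scaled to nearly the same total within each sample, and they carry no sequencing depth, so the depth of each sample is unknown. The deposited columns are headed scaledTPMs, and each sums to between 999766.5 and 999896.9. Counts scaled to the size of each library would not share 1 total, so the values are read as TPM. The step that wrote them is not known. The deposited mean normalized count, the authors' mean over all 18 samples, shows how much evidence stands behind each gene. It was 509 for Angptl2, 169 for Gcnt1, 158 for Pgm2l1, 19.5 for Coro2a, 7.17 for Arl4c and 0.583 for 2900009J06Rik. A log2 fold change below is on the log2(TPM + 1) scale, which understates the change of the genes under a few TPM.

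The labels were checked first. Ctbp1 stood at 212, 238 and 204 TPM in wildtype vehicle cells and at 24.4, 25.2 and 25.6 TPM in dKO vehicle cells. Under MTOB it was 192, 170 and 199 TPM in wildtype and 25.8, 22.0 and 25.0 TPM in dKO, and under 4-Cl-HIPP it was 204, 216 and 236 TPM in wildtype and 22.4, 31.5 and 19.7 TPM in dKO. Every dKO sample was thus far below every wildtype sample. Ctbp2 mRNA was reduced much less, from 87.8, 93.2 and 96.9 TPM in wildtype vehicle cells to 73.5, 74.9 and 79.4 TPM in dKO vehicle cells. Under MTOB, Ctbp2 was 93.0, 92.1 and 95.5 TPM in wildtype and 81.9, 68.5 and 72.7 TPM in dKO, and under 4-Cl-HIPP it was 88.0, 89.7 and 89.0 TPM in wildtype and 71.7, 75.6 and 71.0 TPM in dKO. A frameshift that leaves the transcript in place need not lower its mRNA, so this level does not test the loss of the protein. All 10 macrophage markers were above 1 TPM on average, with Csf1r, the receptor of a macrophage growth factor, the most abundant at 840 TPM and a summed level between 2430 and 3540 TPM per sample. Markers of T cells, B cells, fibroblasts, epithelium and endothelium each summed to at most 2.10 TPM in any sample. These sums rest on few genes. Only 1 of 4 markers was among the measured genes for T cells (Cd3d), fibroblasts (Col1a1) and epithelium (Krt8), and 2 of 4 for B cells. Single macrophage markers, named after their values were seen, differed between the groups. Cd14, a co-receptor for lipopolysaccharide, had group means of 458 TPM with vehicle, 833 with MTOB and 377 with 4-Cl-HIPP in wildtype cells and of 143, 325 and 104 TPM in dKO cells. Adgre1, the surface antigen F4/80, was at 29.1, 102 and 30.7 TPM in wildtype and at 8.93, 12.6 and 10.7 TPM in dKO cells, and the integrin subunit Itgam was at 15.8, 15.8 and 11.9 TPM in wildtype and at 47.9, 47.9 and 45.5 TPM in dKO cells.

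The 6 genes belong to unrelated processes. Angptl2 is a secreted angiopoietin-like glycoprotein that signals through integrins and is known for promoting inflammation. Gcnt1 is the Golgi enzyme that starts the core 2 branch of mucin-type O-glycans, which selectin ligands of leukocytes carry. Pgm2l1 makes glucose bisphosphate, the cofactor of the hexose phosphate mutases. Arl4c is a small GTPase of the ARF-like family that recruits cytohesins to the plasma membrane and is a known target of the sterol-sensing liver X receptors in macrophages. Coro2a is an actin-binding coronin that is also a component of the nuclear receptor co-repressor (NCoR) complex. 2900009J06Rik is annotated as a long non-coding RNA.

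With 4-Cl-HIPP in wildtype cells, the contrast that chose them, 5 of the 6 genes were higher than with vehicle and Coro2a was lower. The log2 fold change was 1.01 for Arl4c (SE 0.13), 0.97 for Angptl2 (SE 0.09), 0.73 for Gcnt1 (SE 0.13), 0.68 for Pgm2l1 (SE 0.11) and -1.14 for Coro2a (SE 0.18). 2900009J06Rik was listed at 0 in all 3 vehicle samples, so no fold is given. The 6 were not the 6 largest changes on this scale, since Commd1b, at 2.98, Scarna10, at -1.91, and Pmepa1, at 1.60, had larger values than each of the 5 genes with a fold. Scarna10 rests on a mean normalized count of 0.431. The order depends on the pseudocount: by mean TPM, Pmepa1 went from 8.87 to 28.2, and Arl4c from 0.247 to 1.52. Among the genes past an adjusted p of 0.05 and a fold change of 1.5 there, Mt2, at 1.23, and Ifi207, at -0.97, were in size just above and just below Coro2a, Arl4c and Angptl2, while Oasl1, at -0.75, Pdcd1, at 0.70, and Xylt1, at 0.67, lay beside Gcnt1 and Pgm2l1. Genes short of these limits are left out of this order, and nothing is read from it for the 6.

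**Figure D1:**
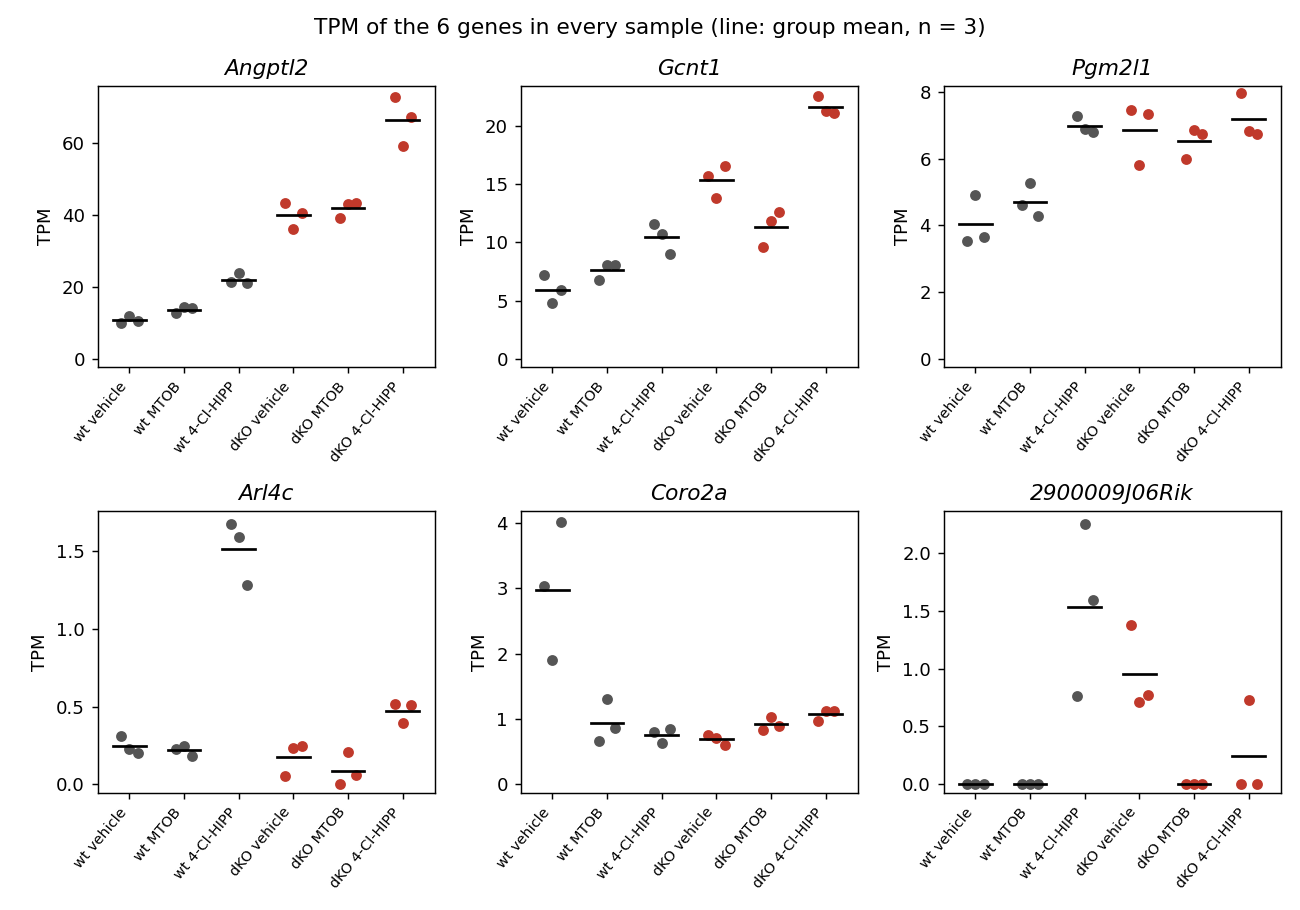
TPM of the 6 genes in each of the 18 samples, by genotype and treatment (wt: wildtype, grey; dKO: red), with 1 point per replicate, a black line at the mean of 3 and a separate linear axis for each gene. Angptl2 has its highest group mean in dKO cells with 4-Cl-HIPP (66.3 TPM), Coro2a in wildtype cells with vehicle (2.98 TPM) and Arl4c in wildtype cells with 4-Cl-HIPP (1.52 TPM).

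Angptl2 was the most abundant of the 6. In wildtype cells it measured 9.84, 11.9 and 10.4 TPM with vehicle, 12.7, 14.3 and 14.0 TPM with MTOB and 21.2, 23.8 and 21.0 TPM with 4-Cl-HIPP. In dKO cells it measured 43.2, 36.1 and 40.5 TPM with vehicle, 39.2, 42.9 and 43.3 TPM with MTOB and 72.6, 59.1 and 67.2 TPM with 4-Cl-HIPP. Every dKO sample exceeded every wildtype sample, and within each genotype the 3 samples with 4-Cl-HIPP exceeded all others. From the highest group to the lowest, the means were 66.3 ± 6.79 TPM in dKO with 4-Cl-HIPP, 41.8 ± 2.27 in dKO with MTOB, 39.9 ± 3.57 in dKO with vehicle, 22.0 ± 1.52 in wildtype with 4-Cl-HIPP, 13.6 ± 0.855 in wildtype with MTOB and 10.7 ± 1.05 in wildtype with vehicle (SD, n = 3 each). Among neighbours in this order, the samples of dKO with MTOB and dKO with vehicle overlapped. The mean with 4-Cl-HIPP was 2.05 times that with vehicle in wildtype cells and 1.66 times in dKO cells.

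Gcnt1 showed a similar order. In wildtype cells it was at 7.15, 4.75 and 5.88 TPM with vehicle, 6.73, 8.02 and 8.08 TPM with MTOB and 11.5, 10.7 and 8.97 TPM with 4-Cl-HIPP. In dKO cells it was at 15.7, 13.8 and 16.5 TPM with vehicle, 9.56, 11.8 and 12.6 TPM with MTOB and 22.5, 21.2 and 21.1 TPM with 4-Cl-HIPP. The samples with 4-Cl-HIPP lay above the vehicle samples in both genotypes, and those with MTOB lay below the vehicle samples in dKO cells and overlapped them in wildtype cells. The group means ran from 21.6 ± 0.799 TPM in dKO with 4-Cl-HIPP through 15.4 ± 1.39 in dKO with vehicle, 11.3 ± 1.58 in dKO with MTOB, 10.4 ± 1.318 in wildtype with 4-Cl-HIPP and 7.61 ± 0.761 in wildtype with MTOB to 5.93 ± 1.20 in wildtype with vehicle (SD, n = 3 each). Neighbours overlapped between dKO with MTOB and wildtype with 4-Cl-HIPP, and between wildtype with MTOB and wildtype with vehicle.

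The samples of Pgm2l1 overlapped between all 3 treatments in dKO cells, and those of wildtype cells with 4-Cl-HIPP lay among them. Its wildtype values were 3.54, 4.90 and 3.66 TPM with vehicle, 4.60, 5.26 and 4.27 TPM with MTOB and 7.26, 6.89 and 6.80 TPM with 4-Cl-HIPP. Its dKO values were 7.45, 5.81 and 7.33 TPM with vehicle, 6.004, 6.85 and 6.74 TPM with MTOB and 7.96, 6.83 and 6.74 TPM with 4-Cl-HIPP. The means were 7.18 ± 0.681 TPM in dKO with 4-Cl-HIPP, 6.98 ± 0.247 in wildtype with 4-Cl-HIPP, 6.86 ± 0.914 in dKO with vehicle and 6.53 ± 0.460 in dKO with MTOB, and each of these overlapped the next. Below them, without overlap, came wildtype with MTOB at 4.71 ± 0.501 TPM and wildtype with vehicle at 4.03 ± 0.754 TPM, which overlapped each other (SD, n = 3 each).

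Arl4c was low everywhere but in wildtype cells with 4-Cl-HIPP. It measured 0.308, 0.229 and 0.205 TPM with vehicle, 0.231, 0.247 and 0.180 TPM with MTOB and 1.67, 1.59 and 1.28 TPM with 4-Cl-HIPP in wildtype cells. In dKO cells it measured 0.0559, 0.231 and 0.250 TPM with vehicle and 0.515, 0.394 and 0.509 TPM with 4-Cl-HIPP, while with MTOB it was listed at 0 in 1 sample and at 0.206 and 0.0597 TPM in the others. Wildtype with 4-Cl-HIPP, at a mean of 1.52 ± 0.207 TPM, did not overlap dKO with 4-Cl-HIPP, at 0.473 ± 0.0682 TPM, and the latter did not overlap wildtype with vehicle, at 0.247 ± 0.0543 TPM. The means of wildtype with MTOB (0.219 ± 0.0349 TPM) and dKO with vehicle (0.179 ± 0.107 TPM) and the 3 values of dKO with MTOB overlapped in turn (SD, n = 3). On the TPM scale without a pseudocount, the mean with 4-Cl-HIPP was 6.13 times that with vehicle in wildtype cells and 2.64 times in dKO cells, values that rest on the deposited mean of 7.17 normalized counts.

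Coro2a was the only one of the 6 that was highest in wildtype vehicle cells. There it measured 3.03, 1.897 and 4.01 TPM, against 0.669, 1.31 and 0.861 TPM with MTOB and 0.798, 0.630 and 0.847 TPM with 4-Cl-HIPP. In dKO cells it measured 0.753, 0.710 and 0.603 TPM with vehicle, 0.828, 1.03 and 0.894 TPM with MTOB and 0.972, 1.13 and 1.13 TPM with 4-Cl-HIPP. The 3 wildtype vehicle samples, with a mean of 2.98 ± 1.06 TPM (SD, n = 3), thus stood above all 15 other samples and also had the widest spread. The other means overlapped from neighbour to neighbour, from 1.07 ± 0.0895 TPM in dKO with 4-Cl-HIPP through 0.946 ± 0.327 in wildtype with MTOB, 0.918 ± 0.105 in dKO with MTOB and 0.758 ± 0.114 in wildtype with 4-Cl-HIPP to 0.688 ± 0.0774 in dKO with vehicle (SD, n = 3 each).

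2900009J06Rik was listed at 0 in 11 of 18 samples. These were all 3 samples of wildtype with vehicle, wildtype with MTOB and dKO with MTOB, and 2 of dKO with 4-Cl-HIPP. It was at 0.762, 2.25 and 1.59 TPM in wildtype with 4-Cl-HIPP, at 1.38, 0.710 and 0.768 TPM in dKO with vehicle and at 0.726 TPM in the remaining sample of dKO with 4-Cl-HIPP. The 6 higher of the 7 values above 0 were 1.02, 1.07, 1.08, 1.94, 2.24 and 3.17 times the lowest, and the mean normalized counts of all 18 samples add up to 10.5. Its differences therefore rest on very few reads in each sample, and its fitted fold changes depend on the pseudocount.

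The first test asked which of the genes changed with 4-Cl-HIPP in cells without CTBPs. Neither group compared was used for the choice, but the spread and thus the p-values came from all 18 samples, which include those that chose the genes. Angptl2 rose, by 0.72 on the log2 scale (SE 0.09, 95% interval 0.53 to 0.91, limma, adjusted p = 0.00139), and it was higher in 3 of 3 treated samples than in any vehicle sample. It ranked 10 by p among the 16383 genes. With only the 4 groups that the choice did not use in the fit, an alternative added after the data were seen, it also passed (adjusted p = 0.00769, with 18 genes passing). It was the only 1 of the 6 to pass, where 25 of 16383 genes (0.153%) passed in all, 20 higher and 5 lower. Of the 10 macrophage markers 0 passed in limma, with 3 at an unadjusted p under 0.05, and Cd14, at -0.46 (adjusted p = 0.00652, lower in 3 of 3 samples), passed the p-value but not the fold limit. The part of these differences in the values of the 6 genes was not tested. Gcnt1, at 0.47 (SE 0.13, adjusted p = 0.181), and Arl4c, at 0.32 (SE 0.13, adjusted p = 0.469), had all 3 treated samples above all 3 vehicle samples but did not pass the adjusted threshold in limma. Coro2a, at 0.30 (SE 0.18, adjusted p = 0.705), was also higher in every treated sample and did not pass either. Its mean TPM with 4-Cl-HIPP was 1.56 times that with vehicle. Pgm2l1 was at 0.06 (SE 0.11, adjusted p = 0.953), with a 95% interval from -0.18 to 0.30. 2900009J06Rik, above 0 in 3 of 3 vehicle samples and in 1 of 3 with 4-Cl-HIPP, did not pass (adjusted p = 0.277). The call of Angptl2 was lost when only the 2 compared groups were fitted (adjusted p = 0.140, with 7 genes passing), and it held without any 1 of the 6 samples (adjusted p between 0.00154 and 0.0115). The number of genes passing depended on single samples: it was 15 without dKO vehicle replicate 1 or replicate 2 and 12 without dKO 4-Cl-HIPP replicate 1. Without dKO 4-Cl-HIPP replicate 2, the 1 sample of its group above 0, 2900009J06Rik was past the limits as well. Leaving that sample out fixed the group at 0, so the call is not read as a change.

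**Figure D2:**
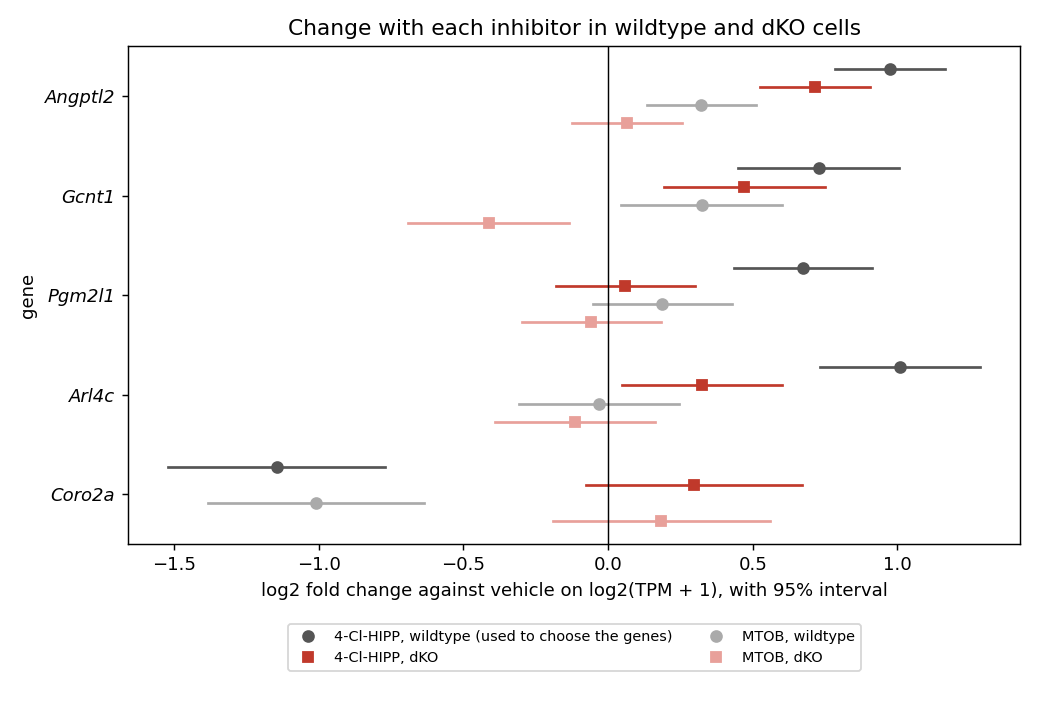
Log2 fold change against vehicle on log2(TPM + 1) for 5 of the 6 genes, with 95% intervals from the fit over all 18 samples, for 4-Cl-HIPP (dark) and MTOB (light) in wildtype (circles) and dKO cells (squares); the 4-Cl-HIPP values in wildtype cells chose the genes, and both inhibitors share the vehicle samples of each genotype. 2900009J06Rik is left out, since groups listed at 0 give it no fold. With 4-Cl-HIPP in dKO cells Angptl2 lies at 0.72 and Pgm2l1 at 0.06.

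Set beside the wildtype values, the 4-Cl-HIPP changes in dKO cells were smaller or of the other sign for each of the 6 genes. The dKO value minus the wildtype value was -0.26 (SE 0.13) for Angptl2, -0.26 (SE 0.18) for Gcnt1, -0.61 (SE 0.16) for Pgm2l1, -0.69 (SE 0.18) for Arl4c and 1.442 (SE 0.25) for Coro2a. These differences contain the samples that chose the genes, which favours large wildtype changes, and they were not tested.

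MTOB in dKO cells also compared groups that the choice did not use. Of the 5 genes measured in most samples, limma passed 0, with 1 at an unadjusted p under 0.05, where 267 of 16383 genes (1.63%) passed, 189 higher and 78 lower, and 19.0% had an unadjusted p under 0.05. Gcnt1 was at -0.41 (SE 0.13, adjusted p = 0.0780), with all 3 MTOB samples below all 3 vehicle samples. The others lay between -0.12 and 0.18, with Angptl2 at 0.07 (SE 0.09, adjusted p = 0.778), Arl4c at -0.12 (SE 0.13, adjusted p = 0.722), Coro2a at 0.18 (SE 0.18, adjusted p = 0.660) and Pgm2l1 at -0.06 (SE 0.11, adjusted p = 0.862). Arl4c, at a mean of 0.179 TPM in dKO with vehicle, could not have passed as lower. Even a fall to 0 stays within the fold limit on log2(TPM + 1). 2900009J06Rik was at 0.710 to 1.38 TPM with vehicle and listed at 0 in 3 of 3 samples with MTOB. Its adjusted p in limma, 0.0136, was past the limit, but it sets very few reads against a group at 0 and was 0.0658 without dKO vehicle replicate 1, so it is not read as a change. Of the 10 macrophage markers, Cd14 passed in the same contrast (log2 1.18, limma, adjusted p = 3.96e-08, higher in 3 of 3 samples). An unadjusted p under 0.05 was found for 6 of the 10. Lyz2, at 0.24 (limma, adjusted p = 0.000541), and Spi1, at 0.34 (adjusted p = 0.00593), passed the p-value but not the fold limit.

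In wildtype cells, MTOB shares the vehicle samples with the contrast that chose the genes, so its values are a description. Coro2a was at -1.01 (SE 0.18), beside -1.14 with 4-Cl-HIPP. Angptl2 and Gcnt1 were each at 0.32 (SE 0.09 and 0.13), Pgm2l1 was at 0.19 (SE 0.11), Arl4c was at -0.03 (SE 0.13) and 2900009J06Rik was listed at 0 throughout.

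The difference between dKO and wildtype cells was tested among the MTOB samples, none of which the choice used, again with the spread from all 18 samples. The mean TPM of Angptl2 in dKO cells was 3.06 times that in wildtype cells. Its fitted log2 fold change, on log2(TPM + 1), was 1.55 (SE 0.09, limma, adjusted p = 8.86e-09), with 3 of 3 dKO samples above every wildtype sample. With only the 4 unused groups in the fit its adjusted p was 9.17e-07. It was the single gene of the 6 to pass, where 811 of 16383 genes (4.95%) passed, 545 higher and 266 lower. Gcnt1, at 0.51 (SE 0.13, adjusted p = 0.0171), and Pgm2l1, at 0.40 (SE 0.11, adjusted p = 0.0301), passed the p-value but not the fold change of 1.5, again with 3 of 3 dKO samples above every wildtype sample, and with the 2 compared groups alone their adjusted p was 0.0865 and 0.0713. Arl4c, at -0.17 (SE 0.13, adjusted p = 0.523), and Coro2a, at -0.01 (SE 0.18, interval -0.38 to 0.37), did not pass, and 2900009J06Rik was listed at 0 in all 6 samples. Arl4c, at a mean of 0.219 TPM in wildtype with MTOB, could not have passed as lower. On log2(TPM + 1) even a fall to 0 stays within the fold limit. Its mean TPM in dKO cells was 0.404 times that in wildtype cells, with overlapping samples. Without dKO MTOB replicate 1, Gcnt1 passed both limits (log2 0.62, adjusted p = 0.00780), while without another sample its adjusted p reached up to 0.0822. The adjusted p of Pgm2l1 reached up to 0.121 in limma when 1 sample was left out. Of the 10 macrophage markers, 3 passed in this contrast: Adgre1 at -2.92, Cd14 at -1.36 and Itgam at 1.49, each in 3 of 3 samples (limma, adjusted p = 1.76e-08, 2.56e-09 and 3.97e-05). An unadjusted p under 0.05 was found for 7 of the 10. Mpeg1, at -0.36, Lyz2, at -0.23, and Cd68, at 0.14, passed the p-value but not the fold limit (limma, adjusted p = 0.000248, 0.000296 and 0.0214). Of the 3 endothelial markers, Pecam1 passed, from 0, 0.132 and 0 TPM in wildtype to 0.640, 0.671 and 0.451 TPM in dKO cells (log2 0.60, limma, adjusted p = 0.0158, higher in 3 of 3 samples). This call was lost with the 2 compared groups alone (adjusted p = 0.0604) and without wildtype MTOB replicate 1 (0.0556) or replicate 3 (0.0566) or dKO MTOB replicate 2 (0.0566), and without dKO MTOB replicate 1 the gene missed the fold limit. Under vehicle its group means were 0.0226 TPM in wildtype and 1.20 TPM in dKO cells. The part of such differences between the lines in the values of the 6 genes was not tested.

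The same genotype difference under vehicle and under 4-Cl-HIPP uses the samples that chose the genes and is given without a test. Under vehicle, dKO minus wildtype was 1.80 for Angptl2 (SE 0.09), 1.25 for Gcnt1 (SE 0.13), 0.65 for Pgm2l1 (SE 0.11), -0.08 for Arl4c (SE 0.13) and -1.20 for Coro2a (SE 0.18), while 2900009J06Rik was listed at 0 in every wildtype sample. Under 4-Cl-HIPP it was 1.55 for Angptl2, 0.99 for Gcnt1, 0.24 for Coro2a, 0.03 for Pgm2l1, -0.77 for Arl4c and -1.03 for 2900009J06Rik. Every dKO sample of Angptl2 and of Gcnt1 lay above every wildtype sample under each of the 3 treatments, though under MTOB, the 1 tested, Gcnt1 did not pass the fold limit. Coro2a was lower in dKO cells under vehicle, where every dKO sample lay below every wildtype sample, and higher under 4-Cl-HIPP.

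Genes of the same processes were read from 5 lists, which held 84 tested genes without the 6 themselves. Across the lists, 1 gene (1.19%) passed with 4-Cl-HIPP in dKO cells, beside 0.153% of all genes, and a single gene is no result about the lists. This was B4galt1, a Golgi galactosyltransferase that extends N- and O-glycans, in the list of 17 tested genes of mucin-type O-glycan synthesis. It measured 47.4, 41.3 and 45.2 TPM with vehicle and 85.3, 69.6 and 76.0 TPM with 4-Cl-HIPP in dKO cells, and it rose by 0.77 (SE 0.09, limma, adjusted p = 0.00109), higher in 3 of 3 samples. Its dKO call, like that of Angptl2, was lost when only the compared groups were fitted (adjusted p = 0.116), and it held with only the 4 unused groups (0.00769). The median of the glycan list was 0.08, beside 0.00 over all genes. Galnt7, which attaches the first sugar of these chains and was the most abundant of the list, was at 0.15 (SE 0.05, adjusted p = 0.407).

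With 4-Cl-HIPP in dKO cells, limma passed 0 genes of the other lists. An unadjusted p under 0.05 was found for 8 of the 84 genes (9.52%), beside 8.47% of all tested genes. These were 4 of 17 glycan genes, 1 of 9 angiopoietin-like ligands and receptors, 1 of 31 ARF and ARL small GTPases and ARL4 partners, 1 of 11 coronins and NCoR subunits and 1 of 16 hexose phosphate mutases and glycogen enzymes. The medians of the last 4 of these lists were 0.13, 0.02, 0.02 and -0.03, and the most abundant gene of each lay near 0: Itgb1, an integrin beta subunit, at -0.02 (SE 0.04), Arf1, the ARF of the Golgi, at -0.01 (SE 0.02), Coro1a, the leukocyte coronin, at 0.00 (SE 0.04), and Gpi1, which interconverts the hexose phosphates of glycolysis, at -0.05 (SE 0.04).

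With MTOB in dKO cells, 1 listed gene (1.19%) passed, a share below the 1.63% of all genes, so the count is no result about the lists. Itga5, the alpha subunit of the fibronectin receptor that also binds Angptl2, measured 44.1, 42.1 and 49.0 TPM with vehicle and 80.8, 92.4 and 90.1 TPM with MTOB. It rose by 0.95 (SE 0.08, limma, adjusted p = 1.10e-06), higher in 3 of 3 samples. The other 4 lists had 0 genes passing in limma. An unadjusted p under 0.05 was found for 23 of the 84 genes (27.4%), beside 19.0% of all tested genes, with 2 of 9 angiopoietin-like ligands and receptors, 7 of 31 ARF and ARL genes, 3 of 11 coronins and NCoR subunits, 7 of 17 glycan genes and 4 of 16 hexose phosphate genes.

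Between the genotypes under MTOB, 5 of the 84 listed genes (5.95%) passed, a share near the 4.95% of all genes, so their count is no result about the lists. Galnt6, another enzyme that starts O-glycans, measured 9.23, 6.56 and 7.89 TPM in wildtype, was listed at 0 in 2 dKO samples and stood at 0.0726 TPM in the remaining one. It fell by 3.11 on the log2 scale (SE 0.10, limma, adjusted p = 1.22e-11). St3gal1, which caps O-glycans with sialic acid, rose from 5.15, 5.56 and 5.90 TPM to 8.90, 10.9 and 11.1 TPM (log2 0.78, SE 0.11, adjusted p = 0.000115). Itga5 rose from 43.3, 39.0 and 41.3 TPM to 80.8, 92.4 and 90.1 TPM (log2 1.07, SE 0.08, adjusted p = 1.06e-07), and Coro7, a coronin of the Golgi, fell by 0.95 (SE 0.21, adjusted p = 0.00736), from 39.4, 37.4 and 30.9 TPM to 11.9, 23.3 and 21.0 TPM, a call lost with the 2 compared groups alone (adjusted p = 0.120). Arl11, an ARF-like GTPase, rose by 0.61 (SE 0.18, adjusted p = 0.0373), a call lost without wildtype MTOB replicate 1 (adjusted p = 0.0622) or replicate 2 (0.168) and without dKO MTOB replicate 1 (0.0834) or replicate 2 (0.123), and with only the 4 unused groups (0.0579). In limma, 0 of the 16 hexose phosphate genes passed. An unadjusted p under 0.05 was found for 32 of the 84 genes (38.1%), beside 22.4% of all tested genes, with 4 of 9 angiopoietin-like ligands and receptors, 14 of 31 ARF and ARL genes, 2 of 11 coronins and NCoR subunits, 8 of 17 glycan genes and 4 of 16 hexose phosphate genes.

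In the mouse build GRCm39, the 6 genes lie on 5 chromosomes. Positions and exons are from Gencode M39, a later release on the same build than the one on which the authors quantified the reads. Angptl2 is at chr2:33105946-33138252 on the plus strand, Pgm2l1 at chr7:99876601-99928076 on the plus strand, Gcnt1 at chr19:17303505-17350208 on the minus strand and Coro2a at chr4:46536937-46602202 on the minus strand. Arl4c, at chr1:88600847-88629943, and 2900009J06Rik, at chr1:127663379-127702611, share chromosome 1 and the minus strand. None of the nearest tested genes on either side of the 6 passed with 4-Cl-HIPP or MTOB in dKO cells or between the genotypes under MTOB. The closest pair flanks Coro2a, with Trim14 794 bases and Tbc1d2 2186 bases away. Trim14 was at -0.12 (SE 0.17) and Tbc1d2 at 0.03 (SE 0.15) with 4-Cl-HIPP in dKO cells. The neighbours of Angptl2, Garnl3 and Zbtb34, were at -0.03 (SE 0.28) and -0.07 (SE 0.11) there. Those of Gcnt1, Prune2 and Rfk, were at 0.42 (SE 0.27) and 0.05 (SE 0.16), and those of Pgm2l1, Kcne3 and Ppme1, were at 0.36 (SE 0.36) and -0.05 (SE 0.09). Glrp1 and Gm38312, on either side of Arl4c, were at 0.33 (SE 0.22) and -0.02 (SE 0.17). Mgat5 and Rab3gap1, on either side of 2900009J06Rik, were at 0.35 (SE 0.10, adjusted p = 0.181) and 0.03 (SE 0.06).

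The libraries were unstranded, so reads from overlapping exons on opposite strands cannot be told apart. The exon bases below are those of the later release and may differ from the exons behind the deposited values. Angptl2 lies inside Ralgps1 on the opposite strand but shares 0 exon bases with it, and Ralgps1 was between 1.24 and 1.74 TPM in its group means. Coro2a shares 615 of its 6459 exon bases with Gm16731, which reached at most 0.289 TPM in any sample, and 222 with Gm57151, which is not among the measured genes. 2900009J06Rik shares 222 of its 4352 exon bases with the start of Ccnt2, a cyclin subunit of the elongation factor P-TEFb, whose group means lay between 25.0 and 33.4 TPM. Ccnt2 did not pass with 4-Cl-HIPP (0.18, SE 0.12) or MTOB (-0.25, SE 0.12) in dKO cells. The part that its reads have in the values of 2900009J06Rik was not tested. 2900009J06Rik also shares 94 exon bases with Acmsd, and Arl4c shares 2 with Gm70579, neither of which is among the measured genes. These 6 overlapping genes are named for their position, outside the rule for named genes, after the values of the measured ones were seen.

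Across the 18 samples, the 6 genes did not follow 1 pattern. Pearson's r of log2(TPM + 1) was 0.93 between Angptl2 and Gcnt1, 0.83 between Angptl2 and Pgm2l1 and 0.78 between Gcnt1 and Pgm2l1, while Arl4c was at -0.05 with Angptl2, and Coro2a was at -0.71 with Pgm2l1. The samples share genotype and treatment, so these values describe the group means more than the samples. The wildtype vehicle and wildtype 4-Cl-HIPP samples that chose the genes are among the 18, so these r are not independent of the choice. Among genes whose mean normalized count reached 50, the closest to Angptl2 were Lmna, the nuclear lamin A gene (r = 0.98), and Fads1, a fatty acid desaturase (r = 0.97). Lmna had group means of 359 TPM in wildtype with vehicle, 417 in wildtype with 4-Cl-HIPP, 589 in dKO with vehicle and 669 in dKO with 4-Cl-HIPP. Closest to Gcnt1 were Irf2bpl (r = 0.96) and again Fads1 (r = 0.94), and closest to Pgm2l1 were Otulinl and Pmepa1 (r = 0.86 each). Arl4c was followed by Zhx1 (r = 0.90) and by Ski, a co-repressor of SMAD proteins (r = 0.86). Coro2a and 2900009J06Rik had looser partners, with Specc1l (r = 0.75) and Cops2 (r = 0.73) for Coro2a, and Fchsd1 (r = 0.78) and Polr2b (r = 0.77) for 2900009J06Rik.

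Promoters were read because CTBPs reach DNA through factors that bind short motifs. The RefSeq promoter table, made on GRCm38.p6, holds 9 windows for the 6 genes, with at least 1 for each, from 250 bases before to 50 after a start. Both strands were searched, and hits that share bases were each counted. CACCC, bound by KLF factors, was in 8 of 9 windows and in 57.5% of all 32851 windows. GGGCGG, the GC box, was in 5 of 9 and in 35.7% of all. CACCTG, bound by the ZEB factors that recruit CTBPs, was in 3 of 9, 2 at Gcnt1 and 1 at Pgm2l1, and in 20.2% of all. TGACNNNGC, the core of the antioxidant response element, was in 1 of 9, at Angptl2, and in 12.4% of all. TGACTCA, bound by AP-1, was in 0 of 9 and in 5.2% of all, and GTCTAGAC, a SMAD palindrome, was in 0 of 9 and in 0.213% of all. A match is a description of letters, not a binding site. Of the 250 upstream bases, the share of G and C was 66.8% at Angptl2, 71.6% at Arl4c, 71.2% at Pgm2l1 and 71.6% at 2900009J06Rik. It was 73.6% and 49.2% at Coro2a and 40.4%, 55.6% and 51.6% at Gcnt1, beside a median of 52.4% over all windows. The part of this base content in the motif counts was not tested.

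The upstream stretches of Angptl2, Gcnt1 and Arl4c are shown because, of the 5 genes higher with 4-Cl-HIPP in wildtype cells, these 3 have at least 150 bases before a start that lie outside their own exons. The windows of Pgm2l1 and 2900009J06Rik have 213 and 250 of their 250 upstream bases in their own exons and are not shown. Each was read from the 250 bases before the start and ends where an exon of its own gene begins, which left 223 bases of Angptl2, 220 of Arl4c and 240 of the second Gcnt1 start, while the first Gcnt1 start kept all 250. Each RefSeq sequence matched GRCm39 exactly once, and the coordinates are of that match. All run 5′ to 3′ on the strand of the gene, with the searched motifs on either strand in capitals. The stretch of Angptl2, chr2:33105723-33105945 on the plus strand, holds CACCC, the reverse complement of TGACNNNGC and a GC box. The first Gcnt1 start, chr19:17350209-17350458 on the minus strand, holds CACCC on the other strand, and the second, chr19:17334042-17334281, inside the gene, holds CACCTG and CACCC on the other strand. The stretch of Arl4c, chr1:88629944-88630163 on the minus strand, holds a GC box and overlaps an exon of the opposite-strand RNA Gm70579.
Angptl2: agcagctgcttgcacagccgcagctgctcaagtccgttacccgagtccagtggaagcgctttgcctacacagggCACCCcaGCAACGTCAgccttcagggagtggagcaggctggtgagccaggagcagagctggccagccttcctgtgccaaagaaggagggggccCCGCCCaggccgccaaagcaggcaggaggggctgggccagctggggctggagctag
Gcnt1 first start: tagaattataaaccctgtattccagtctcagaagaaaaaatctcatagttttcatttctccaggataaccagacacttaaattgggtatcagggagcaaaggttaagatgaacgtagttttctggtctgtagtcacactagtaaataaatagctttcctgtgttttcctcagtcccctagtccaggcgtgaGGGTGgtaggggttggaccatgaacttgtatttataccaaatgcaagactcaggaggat
Gcnt1 second start: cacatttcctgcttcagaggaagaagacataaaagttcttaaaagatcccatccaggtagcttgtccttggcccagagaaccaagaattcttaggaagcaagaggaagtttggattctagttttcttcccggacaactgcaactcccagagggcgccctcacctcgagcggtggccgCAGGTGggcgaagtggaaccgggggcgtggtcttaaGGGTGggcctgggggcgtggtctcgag
Arl4c: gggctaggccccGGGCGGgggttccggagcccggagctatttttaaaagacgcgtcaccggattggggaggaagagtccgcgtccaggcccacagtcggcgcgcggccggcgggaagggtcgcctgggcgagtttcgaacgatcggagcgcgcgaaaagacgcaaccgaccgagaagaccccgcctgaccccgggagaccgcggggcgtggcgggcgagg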

How the data were processed

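Labels gave the genotype and treatment of all 18 samples. The authors estimated transcript levels with Salmon on the Gencode transcripts of GRCm39, summarised them per gene and tested them with DESeq2. The deposited table holds a TPM value per gene and sample, headed scaledTPMs, and a signal, the mean DESeq2-normalized count of a gene that the authors took over samples. It also holds the authors' log2 fold changes and adjusted p-values for each inhibitor in each genotype, which were not used. Of 18204 genes, the 16383 above the 10th percentile of that mean (0.222) were fitted here as log2(TPM + 1), with the 6 group means in 1 model and an empirical Bayes variance trend along log2 of that mean (limma 3.58.1, R 4.3.3). TPM are not counts, so no count test was run. P-values were adjusted by Benjamini-Hochberg over all tested genes of a contrast, and calls required an adjusted p below 0.05 and a fold change above 1.5. The procedure was tested on simulated data. The 6 genes were tested only in contrasts that do not compare the wildtype vehicle or wildtype 4-Cl-HIPP groups, though all 18 samples set the spread. The wildtype 4-Cl-HIPP contrast was fitted to find the genes beside the members and tests none of them.

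The members and lists were chosen with earlier results of these data known. Named genes were the 6 members, Ctbp1 and Ctbp2, list genes that passed (at most 4 per list and the most abundant), the nearest tested genes, the 2 genes most alike by Pearson's r, and, among genes past both limits with 4-Cl-HIPP in wildtype cells, those beside the members by size of change. The alternatives were pseudocounts of 0.5 and 0.1, no filter, a mean count that reaches 10, the 2 compared groups alone, a replicate block, no variance trend, median-of-ratios and quantile scaling, no fold limit, and leaving out each sample. A fit on the 4 groups that the choice did not use was added after seeing the data. Replicates correlated at 0.983 to 0.987. Positions came from Gencode M39 (GRCm39), a later release than the authors used, and promoters from RefSeq. Plots used matplotlib 3.10.9 (Python 3.11.15).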

Additional observations from a re-analysis of the deposited data

Results flagged for a closer look

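In 4 cases every sample of a gene lay on one side of its comparison group in one setting and on the other side in another, and the differences between the settings were not tested. Each case contains the wildtype vehicle samples, and all but the MTOB case also contain wildtype 4-Cl-HIPP. The difference between these groups chose the genes, which favours a large value on 1 side, so the cases are a description. How many of all tested genes changed sides in this way was not counted. Whether 4 cases are many or few is therefore unknown. Coro2a was lower with 4-Cl-HIPP than with vehicle in wildtype cells (log2 -1.14) and higher in dKO cells (0.30), a difference of 1.442. With MTOB it was likewise lower in wildtype cells (-1.01) and higher in dKO cells (0.18), a difference of 1.19. Seen between the genotypes, Coro2a in dKO cells was below its wildtype level under vehicle (-1.20) and above it under 4-Cl-HIPP (0.24). This is the first difference of 1.442 written another way, from the same groups, and not a further observation. In dKO cells alone, neither the value with 4-Cl-HIPP (adjusted p = 0.705) nor that with MTOB (0.660) passed in limma. The Coro2a differences all contain the wildtype vehicle samples, at 3.03, 1.897 and 4.01 TPM. 2900009J06Rik was higher in dKO than in wildtype cells under vehicle (0.95) and lower under 4-Cl-HIPP (-1.03), a difference of -1.98, with 11 of 18 samples, all 3 of wildtype vehicle among them, listed at 0, so these fitted values depend on the pseudocount.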

How the results depend on the processing

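Of the recomputed counts of passing genes, 88 stayed within 1.5 times the reported count and 14 did not. With only the compared groups fitted, 0 of the 6 genes and 7 genes in all passed with 4-Cl-HIPP in dKO cells, and 135 genes with MTOB; fewer samples then set the spread. Without the fold limit, 82 genes passed with 4-Cl-HIPP, 1078 with MTOB and 1829 between the genotypes under MTOB, where 3 of the 6 genes then passed. At a mean normalized count of at least 10, 0 of the 6 passed with MTOB, since 2900009J06Rik was not tested. With a pseudocount of 0.1, Coro2a between the genotypes under MTOB was at 0.0023, the opposite sign of its -0.01. The call of Arl11 was lost with a pseudocount of 0.1 (adjusted p = 0.0750), the compared groups alone (0.157), the replicate block (0.0596) and quantile scaling (0.0592), and that of Coro7 with the compared groups alone (0.120); the cause was not tested. Leaving out each sample gave 1 to 2 of the 6 genes and 12 to 31 genes with 4-Cl-HIPP in dKO cells. With MTOB it gave 0 to 1 and 224 to 278, and between the genotypes 1 to 2 and 724 to 809. The second gene with 4-Cl-HIPP and the 1 with MTOB were 2900009J06Rik, which is not read as a change. Leaving out each sample also gave Pgm2l1 with 4-Cl-HIPP a range from -0.0401 to 0.1154, Angptl2 with MTOB from -0.0029 to 0.12 and Coro2a between the genotypes from -0.11 to 0.12. Same-numbered replicates deviated together at r = -0.08 to 0.069 over 12 pairs, and 3 of 12 samples correlated best with their own number. These r are over many genes and do not show that the samples are unpaired for single genes. Angptl2 in dKO cells was highest in replicate 1 and lowest in replicate 2 with vehicle and with 4-Cl-HIPP. With MTOB its replicate 1 was the lowest. The replicate block gives each number 1 effect across both genotypes, and a pairing within 1 genotype was not fitted. With the replicate block, 23, 256 and 800 genes passed, and of the 6 Angptl2 with 4-Cl-HIPP and between the genotypes; with MTOB it was again 2900009J06Rik alone. With only the 4 groups that the choice did not use, added after seeing the data, 18, 246 and 769 genes passed, with the same calls among the 6, and Arl11 was lost (0.0579). TPM carry no depth, so what it limits could not be measured.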
